A study of Mus musculus with 2 samples.

Results

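Cajal-Retzius cells were examined by single cell RNA sequencing (scRNA-seq) in dissected dorsal telencephalon of E14.5 mouse embryos labelled WT. The cells were chosen by the measured counts of 7 genes. A barcode was taken as a Cajal-Retzius cell when it held at least 2 UMIs of *Trp73*, *Lhx1* and *Lhx5* together, at least 5 UMIs of *Reln*, and at most 2 UMIs of *Gad1*, *Gad2* and *Dlx6os1* together. UMIs, unique molecular identifiers, count captured RNA molecules. This gate found 141 cells among 12936 barcodes that passed the filter, out of 15033 barcodes as deposited. Of these cells, 50 came from replicate 1 and 91 from replicate 3, and no other sample was analysed here. The labels give the genotype of both samples as WT and the tissue as brain hemispheres, and the series describes them as control embryos of a line named EomesMllt3. The labels do not say which alleles of that line the controls carry, nor whether the samples are separate embryos, so p-values measure only the spread between these 2 samples, which may be technical. Both samples belong to 1 group, so that cell classes were compared within the libraries and no treatment was tested.

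Cajal-Retzius cells are among the earliest neurons of the cortex. They arise at the borders of the pallium, such as the cortical hem and the septum, migrate tangentially under the meninges and settle in the marginal zone. There they secrete reelin, an extracellular glycoprotein that binds the receptors VLDLR and ApoER2 (gene *Lrp8*) on migrating projection neurons and leads to phosphorylation of the adaptor DAB1, which controls the layering of the cortex. The transcription factor p73 (gene *Trp73*) is known to be needed for the development and survival of many of these cells, and most of them die after birth.

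The 2 libraries held 6163 and 8870 barcodes as deposited, of which 5453 and 7483 had 1500 to 60000 UMIs and under 10% mitochondrial UMIs. The libraries shared 23 barcode sequences as deposited and 17 after the filter. A further 3 classes were gated on UMIs for comparison, each with no UMI of *Trp73*, *Lhx1* or *Lhx5*. Projection neurons, with at least 10 UMIs of *Neurod2* and *Neurod6*, numbered 2364 and 2844 cells. GABAergic neurons, with at least 5 UMIs of *Gad1*, *Gad2* and *Dlx6os1*, numbered 627 and 209, and radial glia-like progenitors, gated on *Sox2*, *Pax6* and *Hes5*, 603 and 999. Cajal-Retzius cells had a median of 14930 UMIs and 4746 genes in replicate 1 and of 13331 UMIs and 4461 genes in replicate 3, close to the 12791 and 12880.5 UMIs of projection neurons, while GABAergic neurons had 5262 and 4778 UMIs. The UMIs of all cells of a class were summed per replicate, which gave 828473 and 1425910 UMIs for Cajal-Retzius cells, and levels are given as counts per 1000000 UMIs of that sum (CPM). Pairs of values name replicate 1 first and replicate 3 second. A level in such a sum does not tell apart more cells with the RNA from more RNA per cell.

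Cajal-Retzius cells made up 0.917% of the kept barcodes of replicate 1 (95% Wilson interval 0.696% to 1.21%) and 1.22% of replicate 3 (0.992% to 1.49%). The mean was 1.07% ± 0.212 (SD, n = 2), and the intervals, which cover counting error only, overlapped. The share depended on the depth of the barcodes. When each barcode was thinned to 3000 UMIs before the gate was applied, 0.504% and 0.651% met it.

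The gate genes chose the cells, so their values are a description. *Reln* reached 9163 CPM in replicate 1 and 7325 CPM in replicate 3 in Cajal-Retzius cells, against 33.9 and 38.8 CPM in projection neurons, 265 and 429.7 CPM in GABAergic neurons and 7.26 and 7.73 CPM in radial glia-like progenitors. A single Cajal-Retzius cell held a median of 136 *Reln* UMIs in replicate 1 (8 to 586) and of 101 in replicate 3 (5 to 484), so that most members lay far above the limit of 5 UMIs. Median UMIs per cell were 5 and 4 for *Trp73*, 2 and 2 for *Lhx1*, and 2 and 1 for *Lhx5*. All 3 transcription factor genes were found together in 83 of the 141 cells. *Trp73* was the most widely found, missing in 2 cells of replicate 1 and 5 of replicate 3, while *Lhx1* was missing in 10 and 18 and *Lhx5* in 6 and 32. Glutamate decarboxylase RNA was nearly absent. Across all members, *Gad1* and *Gad2* were found in 1 cell of replicate 1 and 3 cells of replicate 3, with 1 UMI at most of either gene, and *Dlx6os1* had 0 UMIs.

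**Figure D1:**
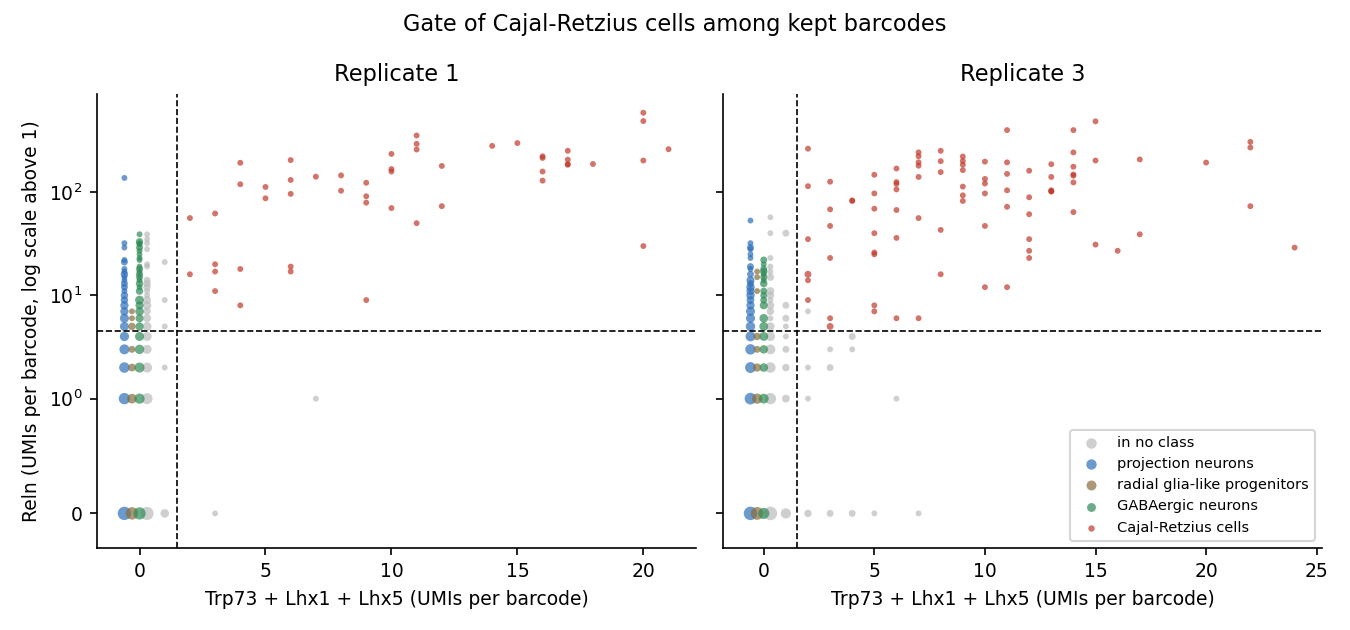
Each point is a barcode pattern with its UMIs of *Trp73*, *Lhx1* and *Lhx5* together (x axis) and of *Reln* (y axis, log scale above 1), in 1 panel per replicate, coloured by class and larger where more barcodes share it. Dashed lines mark the limits, classes at 0 are set side by side, and Cajal-Retzius cells fill the upper right with median *Reln* of 136 and 101 UMIs.

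Just inside the limits, 2 and 7 members held a transcription factor sum of exactly 2, with median *Reln* of 36 and 16 UMIs, and 2 and 8 members held 5 to 9 *Reln* UMIs. Just outside, 3 and 6 barcodes had a sum of 1 and met the other limits, with median *Reln* of 9 and 8 UMIs. No barcode of replicate 1 and 4 of replicate 3 held 3 or 4 *Reln* UMIs with the other limits met. Counting from 0 to 4 *Reln* UMIs, 2 and 17 barcodes met the other limits, with a median transcription factor sum of 5 and 3 UMIs and a median of 4 of the 16 markers described next in both replicates. A further barcode of replicate 3 was kept out by its sum of *Gad1*, *Gad2* and *Dlx6os1*.

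The label was then checked with 16 markers of Cajal-Retzius cells that the gate did not use, among them *Calb2* (calretinin), the EBF factors *Ebf1*, *Ebf2* and *Ebf3*, *Nhlh2*, *Ndnf*, *Cxcr4* and *Barhl2*. A median of 11 of the 16 was found per Cajal-Retzius cell in both replicates, against 1 and 2 in projection neurons, 1 in GABAergic neurons and 1 in radial glia-like progenitors. At least 3 markers were found in 49 of 50 and 91 of 91 members, and in 19.0% and 27.8% of projection neurons. After thinning to 3000 UMIs per cell, which left out 1 member in each replicate, the median was 7 in Cajal-Retzius cells and 1 in projection neurons. The markers thus went with the label. Neuronal RNA was found as well, with *Tubb3* (neuronal tubulin) at 1328 and 1175 CPM and *Stmn2* (stathmin 2) at 2051 and 1419 CPM, against 56.97 and 59.7 CPM and 52.6 and 38.2 CPM in radial glia-like progenitors. Both genes were less abundant in the members lowest in *Reln*, as given further on.

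**Figure D2:**
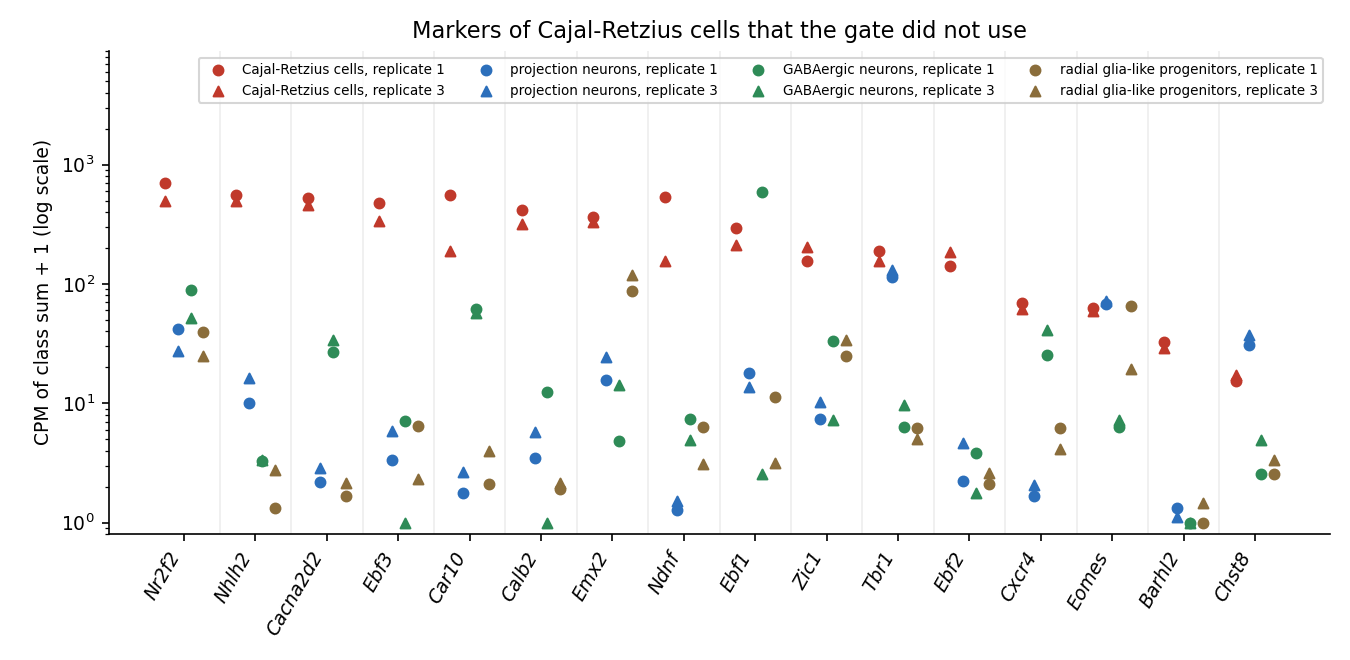
Level of each of the 16 markers that the gate did not use (x axis) as CPM of the class sum plus 1 (y axis, log scale), with colours for the 4 classes, circles for replicate 1 and triangles for replicate 3. *Ndnf* lies at 535 and 155 CPM in Cajal-Retzius cells, while *Tbr1*, *Eomes* and *Chst8* lie near or under the level of projection neurons.

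Differences across all genes were tested on the 8 class sums with edgeR's quasi-likelihood test and Benjamini-Hochberg adjustment over 14827 genes, without the gate genes, at an adjusted p under 0.05. Between Cajal-Retzius cells and projection neurons 3026 genes differed (20.4%), of which 1403 were higher (9.46%) and 1623 lower (10.9%) in Cajal-Retzius cells, and 3011 (20.3%) also had the same direction in both replicates. This split depended on the scaling of the sums by the trimmed mean of M values (TMM). Without TMM factors 2255 genes were higher and 839 lower, so that 72.9% of the called genes were higher in place of 46.4%, and the median log2 difference of all genes was 0.19 in place of -0.08. Differences below are log2 differences with TMM scaling, Cajal-Retzius cells minus the other class, and are read against that median. Counts of called genes in the lists below are read beside the 20.4% of all genes that differed, 9.46% higher and 10.9% lower.

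The genes with the largest differences from projection neurons, among those with at least 50 CPM on the higher side, included several of the secreted and membrane proteins by which these cells are known. *Ndnf*, which encodes a secreted neurotrophic factor, stood at 535 CPM in replicate 1 and 155 CPM in replicate 3 in Cajal-Retzius cells and at 0.2702 and 0.509 CPM in projection neurons, a log2 difference of 9.02, SE 0.75 (edgeR adjusted p = 0.000274). Both sums of Cajal-Retzius cells were far above both sums of projection neurons, and they differed from each other. *Cacna2d2*, an auxiliary subunit of calcium channels, was more even, at 519 CPM in replicate 1 and 461 CPM in replicate 3 against 1.201 and 1.89 CPM, a difference of 7.90, SE 0.27 (edgeR adjusted p = 1.55e-05). *Car10*, a carbonic anhydrase-related protein without catalytic activity, had 559 and 189 CPM against 0.751 and 1.65 CPM (difference 7.82, SE 0.66). The heparan sulfate sulfotransferase *Ndst4* had 315 and 60.3 CPM against 0.751 and 0.606 CPM (difference 7.52, SE 0.75). The 2 replicates of Cajal-Retzius cells were thus apart for *Ndnf*, *Car10* and *Ndst4* and close for *Cacna2d2*, and no group overlapped with projection neurons.

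*Gmnc*, a geminin-related regulator known from multiciliated cells and as an activator of *Trp73*, had 15.7 CPM in replicate 1 and 154 CPM in replicate 3 in Cajal-Retzius cells and 3 and 7 UMIs in all projection neurons of replicates 1 and 3, and was higher (edgeR adjusted p = 0.000911). It was found in 8 of 50 members of replicate 1 and 34 of 91 of replicate 3, at median depths of 14930 and 13331 UMIs, and in 0.127% and 0.141% of projection neurons, at 12791 and 12880.5 UMIs. The long noncoding RNA *Snhg11* stood at 428 and 187 CPM against 2.73 and 0.751 CPM (difference 7.10, SE 0.64), and the predicted gene *Gm30648* at 55.5 and 63.1 CPM against 4 and 3 UMIs in projection neurons. The rule for named genes also gave *Gm27199*, with 134 and 121 UMIs in Cajal-Retzius cells and 1 and 2 in projection neurons, and *Gm10475*, at 161 and 122 CPM against 0.6605 and 0.703 CPM. In GENCODE for GRCm39 both overlap gate genes on the opposite strand, *Gm27199* (named *Lhx5as1*) the gene *Lhx5* and *Gm10475* the span of *Reln*. In RefSeq for GRCm38.p6, *Gm27199* ends at chr5:120431767, just before *Lhx5* begins at chr5:120431886. The counts of both genes are uncertain and are not taken as independent of the gate.

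On the lower side, *Nrp1*, a receptor of class 3 semaphorins, had 19.3 CPM in replicate 1 and 44.9 CPM in replicate 3 in Cajal-Retzius cells against 513 and 486 CPM in projection neurons, a log2 difference of -4.15, SE 0.31 (edgeR adjusted p = 0.000174). *Sema3c*, a ligand of that class, had 4.83 and 4.91 CPM against 93.97 and 86.01 CPM (difference -4.43, SE 0.65). *Fezf2*, which specifies subcortical projection neurons, had 1 and 16 UMIs in Cajal-Retzius cells, or 1.21 and 11.2 CPM, against 126 and 133 CPM (edgeR adjusted p = 0.000734). For all 3 genes both sums of Cajal-Retzius cells lay below both sums of projection neurons. The metalloprotease *Adamts18* had 16.9 and 2.81 CPM against 135 and 130.0 CPM (difference -4.24, SE 0.79), and *Rprm*, a cell cycle arrest gene, 10.9 and 14.03 CPM against 143 and 240.4 CPM (difference -4.16, SE 0.63).

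**Figure D3:**
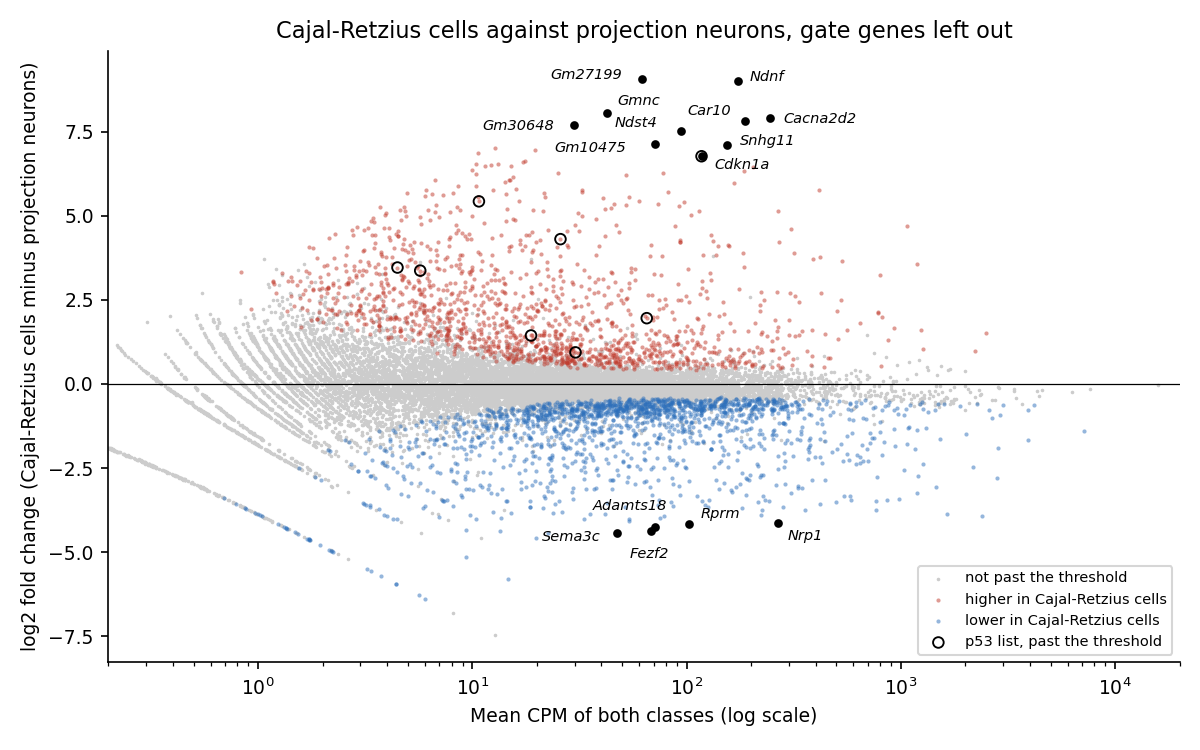
Each point is a gene, with its mean CPM over both classes (x axis, log scale) and its log2 difference between Cajal-Retzius cells and projection neurons (y axis), coloured where past the threshold. Black points are the genes named by the rule, with *Ndnf* at 9.02 and *Sema3c* at -4.43, and rings are the 8 p53 list genes past the threshold.

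Of the 16 markers outside the gate, 12 were higher and 1 lower in Cajal-Retzius cells than in projection neurons, with a median difference of 5.41. *Calb2*, a calcium-binding protein, had 415 CPM in replicate 1 and 318 CPM in replicate 3 against 2.46 and 4.75 CPM (difference 6.33, SE 0.53, edgeR adjusted p = 0.000287). *Nhlh2*, a neuronal helix-loop-helix factor, had 550.4 and 494 CPM against 9.07 and 15.4 CPM (difference 5.13, SE 0.37). *Barhl2*, a homeobox factor, had 31.4 and 28.1 CPM against 0.3302 and 0.121 CPM (difference 6.08, SE 0.68). None of these 3 genes overlapped between the classes. *Tbr1*, a T-box factor shared by early cortical neurons, did not pass the test at 187 and 154 CPM against 113 and 131 CPM, nor did *Eomes* at 61.6 and 58.2 CPM against 67.1 and 70.8 CPM. The sulfotransferase *Chst8* was lower, at 14.5 and 16.1 CPM against 29.5 and 36.04 CPM (difference -1.35, SE 0.28). *Ebf1* had 295 and 209 CPM against 16.99 and 12.7 CPM, yet its difference of 3.80, SE 1.37 missed the threshold (edgeR adjusted p = 0.0908). The 4 classes share 1 estimate of the spread, and the GABAergic sums of *Ebf1* were 591 and 1.56 CPM.

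Genes of the EBF, LIM and Zic families went both ways. Of 18 tested, 7 were higher and 4 lower, with a median difference of 1.78. The higher genes were *Ebf2* (141 and 182 CPM against 1.23 and 3.61 CPM), *Ebf3* (472 and 335 CPM against 2.34 and 4.87 CPM) and genes of the Zic zinc finger family, which are known from the septum, the hem and the meninges. *Zic1* had 155 CPM in replicate 1 and 202 CPM in replicate 3 against 6.42 and 9.16 CPM, a log2 difference of 4.23, SE 0.45 (edgeR adjusted p = 0.000693), and the differences of *Zic2*, *Zic4* and *Zic5* were 5.52, 4.55 and 5.23. The lower genes were LIM-domain partners. *Lmo1* had 14.5 CPM in replicate 1 and 7.71 CPM in replicate 3 against 129 and 150.5 CPM (difference -4.0, SE 0.24) and *Ldb2* 49.5 and 35.1 CPM against 456 and 321 CPM (difference -3.50, SE 0.43), beside *Lmo3* and *Ldb1*, and *Ldb1* did not pass without TMM factors.

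Pallial patterning factors also moved both ways. Of 16 tested, 7 were higher and 2 lower, with a median of 0.77. *Emx2*, a factor of the medial pallium, had 366 CPM in replicate 1 and 326 CPM in replicate 3 in Cajal-Retzius cells against 14.7 and 23.4 CPM in projection neurons, a log2 difference of 3.91, SE 0.37 (edgeR adjusted p = 0.000448), with no overlap. *Lmx1a*, a factor of the hem and roof plate, had 30.2 and 91.2 CPM against 0.781 and 1.99 CPM (difference 5.08, SE 0.72), and *Otx2*, of the same midline region, 3 and 44 UMIs, or 3.62 and 30.9 CPM, against 0.2402 and 0.339 CPM. The 2 doublesex-related genes *Dmrta2* and *Dmrt3* and the nuclear receptor *Nr2f2* were higher with differences of 2.55, 3.20 and 3.88. Its paralog *Nr2f1* was lower, at 96.6 and 84.2 CPM against 179 and 163 CPM (difference -1.20, SE 0.19).

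Of 26 transcription factors of projection neurons, 20 were lower and 1 higher in Cajal-Retzius cells, with a median of -2.47. *Sox5* had 247 CPM in replicate 1 and 257 CPM in replicate 3 against 3008 and 3056 CPM, a log2 difference of -3.86, SE 0.18 (edgeR adjusted p = 4.99e-05). *Bcl11b* (CTIP2), of subcortical projection neurons, had 94.1 and 70.1 CPM against 536 and 617 CPM (difference -3.09, SE 0.27). Neither gene overlapped between the classes. The gene on the higher side was *Zbtb20*, known from the hippocampal and medial pallium, at 1075 and 1534 CPM against 411 and 461 CPM (difference 1.31, SE 0.20). The nuclear factor I genes *Nfia* and *Nfix* did not pass the test, at 1879 and 2352 CPM against 2094 and 2514 CPM and 779 and 764 CPM against 834 and 814 CPM.

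**Figure D4:**
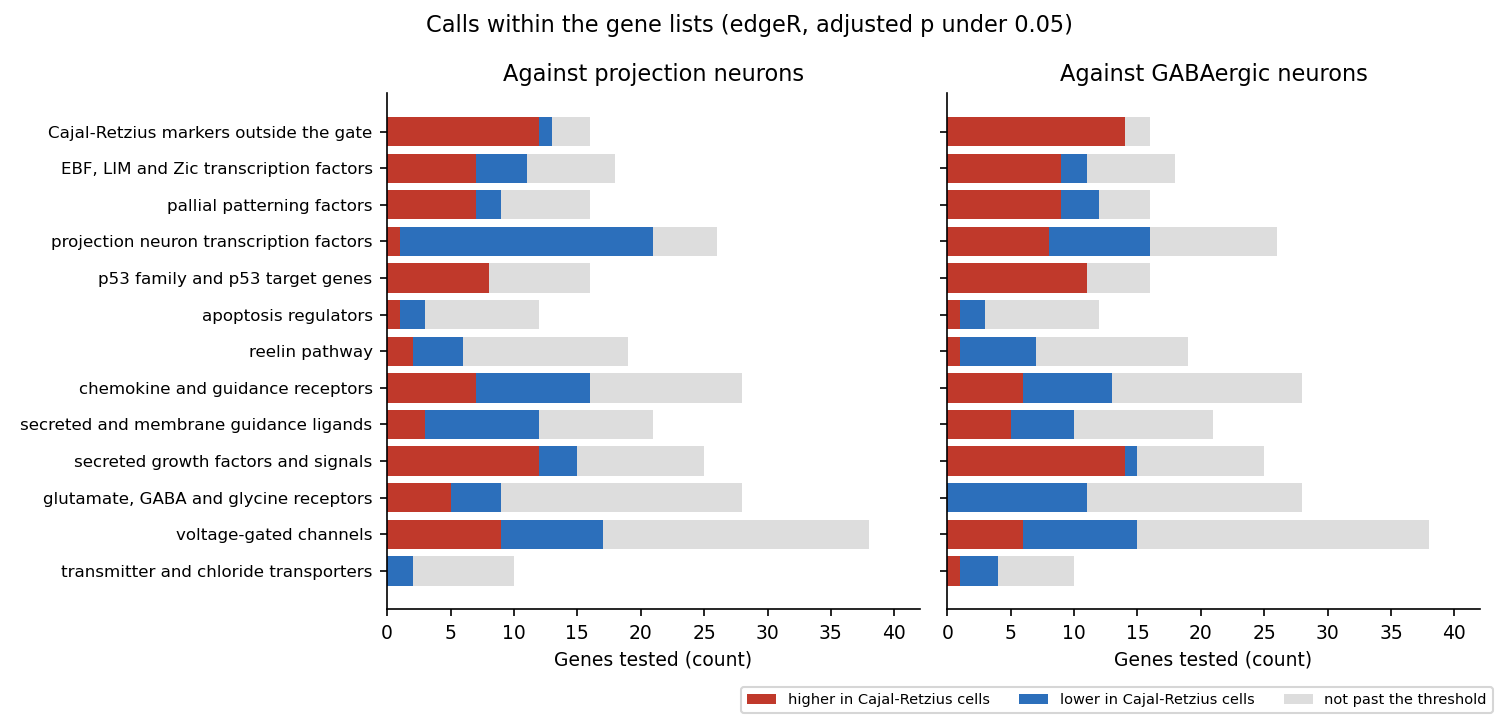
Stacked bars give the number of tested genes (x axis) of each of 13 gene lists (y axis) that were higher, lower or not past the threshold in Cajal-Retzius cells, against projection neurons (left) and GABAergic neurons (right). Of the projection neuron transcription factors, 20 of 26 were lower on the left and 8 of 26 on the right.

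Of the listed genes of the p53 family and p53 targets, those that passed the test with TMM scaling were on the higher side. The list does not hold every such gene, and *Rprm*, given above as lower, was not in it. Since p73 binds the same DNA element as p53, this list was of interest in cells marked by *Trp73*. Of 16 tested, 8 were higher and 0 lower than in projection neurons, with a median of 1.55 against -0.08 for all genes, and over the alternatives from 8 to 13 were higher. With the replicate as a block, without the filter on low counts, and without the members of under 20 *Reln* UMIs, 1 gene was lower. *Cdkn1a* (p21, an inhibitor of cyclin-dependent kinases), at chr17:29090979-29100722 in GRCm38.p6, had 112 CPM in replicate 1 and 353 CPM in replicate 3 in Cajal-Retzius cells against 1.59 and 1.72 CPM in projection neurons, a log2 difference of 6.77, SE 0.50 (edgeR adjusted p = 0.000174). It was found in 56.0% and 73.6% of the members and in 1.99% and 2.14% of projection neurons, at the similar depths given above. The 2 replicates of Cajal-Retzius cells were apart, and both were far from projection neurons. *Eda2r*, a receptor of the tumor necrosis factor family, had 15.7 and 26.6 CPM against 0.1501 and 0.388 CPM (difference 5.43, SE 0.52), and *Phlda3*, an inhibitor of AKT signaling, 33.8 and 65.2 CPM against 2.07 and 1.91 CPM (difference 4.31, SE 0.35). *Perp*, a membrane protein of desmosomes and apoptosis, had 8.45 and 8.42 CPM against 0.5704 and 0.436 CPM (difference 3.46, SE 0.47), and the stress-response gene *Sesn2* 10.9 and 10.5 CPM against 0.5404 and 0.897 CPM (difference 3.37, SE 0.54). The nuclease gene *Aen*, the cyclin G gene *Ccng1* and the RNA-binding protein gene *Zmat3* differed less, by 1.96, 1.44 and 0.94. *Trp53* itself did not pass the test, at 53.1 and 68.03 CPM against 67.3 and 75.1 CPM (edgeR adjusted p = 0.0693), nor did the proapoptotic targets *Bax* (243 and 316 CPM against 169 and 199.8 CPM) and *Bbc3* (18.1 and 16.8 CPM against 8.68 and 7.78 CPM) and the feedback inhibitor *Mdm2* (73.6 and 86.96 CPM against 51.3 and 52.5 CPM).

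The promoters of these genes were searched for the p53 half-site, the element of 10 bases that p53 family proteins bind in pairs. The half-site reads the same on both strands, so both were covered, and matches had to be exact. In RefSeq promoter windows of GRCm38.p6, from 250 bases before to 50 after a start site, 14 of the 19 listed genes had a window and 8 of them held a half-site. Of all 27025 genes with a window 9.55% held one, and of all 32851 windows 8.36%. Of the 8 genes higher in Cajal-Retzius cells 6 had a window. Of these, *Cdkn1a*, *Ccng1* and *Aen* held a half-site while *Eda2r*, *Phlda3* and *Sesn2* did not. Among the listed genes with a window that were not higher, *Bax*, *Gtse1*, *Mdm2*, *Sesn1* and *Trp53* held one. *Bbc3*, *Fas* and *Jag2* did not. A half-site thus did not set the higher genes apart. The list was made of p53 family and p53 target genes, and control by p73 was not tested. A match is a description of the sequence and not a binding site. The 3 stretches of the higher genes are shown in gene orientation with the half-sites in capitals, since they are the sequences behind the count of those genes. The stretch of *Cdkn1a* is chr17:29090866-29090977 on the plus strand, with half-sites 73 and 51 bases before the upstream of its 2 start sites. The window of the downstream *Cdkn1a* start site held none. The stretch of *Ccng1* is chr11:40755422-40755511 on the minus strand, 185 bases before its start site. That of *Aen* is chr7:78895897-78895986 on the plus strand, 121 bases before the downstream of its 2 start sites and 10 bases after the upstream one.
Cdkn1a: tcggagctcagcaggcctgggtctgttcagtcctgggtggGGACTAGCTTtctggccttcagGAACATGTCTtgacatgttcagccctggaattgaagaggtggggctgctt
Ccng1: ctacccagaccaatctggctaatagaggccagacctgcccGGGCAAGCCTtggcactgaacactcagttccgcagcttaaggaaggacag
Aen: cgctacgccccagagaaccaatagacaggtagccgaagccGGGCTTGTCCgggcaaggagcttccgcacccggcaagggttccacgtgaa

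Of 12 regulators of apoptosis tested, 1 was higher and 2 were lower, with a median of -0.27, beside the 20.4% of all genes that differed. The BH3-only gene *Hrk* was higher, at 7.24 and 14.03 CPM against 2.16 and 1.65 CPM (difference 2.19, SE 0.42, edgeR adjusted p = 0.00888). The survival gene *Bcl2* was lower, at 31.4 and 42.1 CPM against 63.3 and 71.4 CPM (difference -1.11, SE 0.18).

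In the reelin pathway, without *Reln* itself, 2 of 19 genes were higher and 4 lower than in projection neurons, with a median of -0.25. Among the receptors, *Lrp8* was lower, at 86.9 CPM in replicate 1 and 81.4 CPM in replicate 3 against 154 and 132 CPM, a log2 difference of -1.04, SE 0.20 (edgeR adjusted p = 0.00847), while *Vldlr* did not pass the test at 15.7 and 39.3 CPM against 31.97 and 27.9 CPM. The adaptor *Dab1* was lower, at 202 CPM in replicate 1 and 344 CPM in replicate 3 against 1175 and 856 CPM (difference -2.16, SE 0.26), with no overlap, and N-cadherin (*Cdh2*), on which neurons depend downstream of reelin, had 512 and 490.2 CPM against 894 and 774 CPM (difference -1.005, SE 0.16). Of the kinases that phosphorylate DAB1, *Fyn* was lower by a small amount (-0.61, SE 0.15) and *Src* higher (0.60, SE 0.17), the first not past the threshold without TMM factors and the second not without the filter on low counts. *Nectin1*, an adhesion protein that is known to link Cajal-Retzius cells to migrating neurons, was higher, at 56.7 CPM in replicate 1 and 69.4 CPM in replicate 3 against 16 and 12.3 CPM (difference 1.89, SE 0.22, edgeR adjusted p = 0.000969). Its partner on projection neurons, *Nectin3*, did not pass the test at 44.7 and 27.4 CPM against 33.1 and 30.6 CPM.

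Receptors for guidance cues differed in both directions. Of 28 tested, 7 were higher and 9 lower, with a median of -0.42. *Cxcr4*, the receptor by which meningeal CXCL12 is known to keep Cajal-Retzius cells at the surface, had 67.6 CPM in replicate 1 and 60.3 CPM in replicate 3 against 0.6605 and 1.07 CPM, a log2 difference of 5.70, SE 0.35 (edgeR adjusted p = 9.17e-05). *Unc5b*, a netrin receptor, had 95.4 CPM in replicate 1 and 85.6 CPM in replicate 3 against 1.89 and 3.47 CPM (difference 4.72, SE 0.31), and the semaphorin receptor *Plxnd1* 45.9 and 43.5 CPM against 5.04 and 8.22 CPM (difference 2.45, SE 0.31). Both classes were apart for these 3 genes. Another netrin receptor, *Unc5c*, was higher by 2.44, while its paralog *Unc5d* was lower, at 185 and 162 CPM against 1747 and 1366 CPM (difference -3.44, SE 0.51). *Plxna2* had 101 and 89.8 CPM against 921 and 868 CPM (difference -3.50, SE 0.25) and the ephrin receptor *Epha5* 173 and 363 CPM against 2119 and 2079.8 CPM (difference -3.23, SE 0.32), both lower in Cajal-Retzius cells. The Slit receptors *Robo1* and *Robo2* and the netrin receptor *Dcc* did not pass the test.

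Among guidance ligands, 3 of 21 were higher and 9 lower, with a median of -0.20. *Sema6a*, a transmembrane semaphorin, had 669.9 CPM in replicate 1 and 792 CPM in replicate 3 against 48.8 and 42.7 CPM, a log2 difference of 3.72, SE 0.24 (edgeR adjusted p = 0.000117). The secreted *Sema3a* was lower, at 7.24 and 9.82 CPM against 108 and 81.2 CPM (difference -3.67, SE 0.27), as were *Sema4d*, *Sema6d* and *Slit3*, with differences of -2.46, -2.37 and -2.85. For *Sema6a* and *Sema3a* the classes did not overlap. The ephrin ligands *Efnb1* and *Efnb2* were lower with differences of -1.65 and -1.29, whereas *Ntn4* and *Efna5* were higher by 1.29 and 1.32.

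Secreted growth factors and signals were higher in 12 of 25 tested genes and lower in 3, with a median of 1.59. *Rspo3*, an R-spondin that enhances Wnt signals, had 515 CPM in replicate 1 and 1185 CPM in replicate 3 against 164 and 149 CPM, a log2 difference of 2.17, SE 0.51 (edgeR adjusted p = 0.0208), and *Rspo2* 43.5 and 318 CPM against 1.32 and 6.13 CPM (difference 5.30, SE 0.93). Both genes had more in replicate 3 than in replicate 1, and neither overlapped with projection neurons. In replicate 3, 2 members of over 50000 UMIs held 228 of the 453 *Rspo2* UMIs. Without these 2 cells, an alternative chosen after seeing the data, *Rspo2* stood at 170 CPM in replicate 3 and differed by 4.56 (edgeR adjusted p = 0.00504), and *Rspo3* stood at 1124 CPM. *Wnt5a* had 31.4 and 83.5 CPM against 4.89 and 8.09 CPM (difference 2.91, SE 0.45) and *Dkk3*, of the Dickkopf family, 30.2 and 49.1 CPM against 2.52 and 1.87 CPM (difference 3.86, SE 0.29). *Wnt8b*, a hem signal, had 1 and 84 UMIs in Cajal-Retzius cells, or 1.21 and 58.9 CPM, against 0.03002 and 1.48 CPM. Its sums overlapped between the classes, since the level of replicate 1 was below that of projection neurons in replicate 3, and it did not pass with DESeq2. The same 2 cells held 68 of the 84 *Wnt8b* UMIs of replicate 3, and without them it stood at 12.1 CPM and did not pass the test (edgeR adjusted p = 0.234). The platelet-derived growth factor gene *Pdgfa* had 83.3 CPM in replicate 1 and 60.3 CPM in replicate 3 against 5.04 and 3.01 CPM (difference 3.83, SE 0.31), the angiogenic factor *Vegfa* 35.00 and 32.96 CPM against 10.1 and 8.36 CPM (difference 1.59, SE 0.24) and *Bmp7* 9.66 and 21.7 CPM against 0.901 and 1.19 CPM (difference 3.53, SE 0.40). The Wnt inhibitor *Sfrp1* was lower, at 14.5 and 11.9 CPM against 49.7 and 58.5 CPM (difference -2.32, SE 0.36), beside *Pdgfc* and *Ptn*.

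Cajal-Retzius cells are glutamatergic, and of the transporter genes *Slc17a6* (VGLUT2) stood at 226 CPM in replicate 1 and 202 CPM in replicate 3 against 108 and 122 CPM in projection neurons, without passing the test (edgeR adjusted p = 0.152). *Slc17a7* (VGLUT1) was lower, at 2 and 4 UMIs in Cajal-Retzius cells, or 2.41 and 2.81 CPM, against 23.2 and 28.8 CPM. The chloride importer *Slc12a2* (NKCC1) did not pass at 30.2 and 41.4 CPM against 33.4 and 32.3 CPM, and the exporter *Slc12a5* (KCC2) did not at 7.24 and 0.701 CPM against 2.37 and 1.82 CPM. Of 10 transporters tested, 0 were higher and 2 lower, with a median of 0.48, beside the 20.4% of all genes that differed. The second of the lower genes, *Slc1a1*, lost its call under 3 alternatives.

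Of 28 tested receptors for glutamate, GABA and glycine, 5 were higher and 4 lower, with a median of -0.27. The GABA-A receptor subunit *Gabrg3* had 302 CPM in replicate 1 and 198 CPM in replicate 3 against 11.9 and 6.86 CPM, a log2 difference of 4.44, SE 0.67 (edgeR adjusted p = 0.00324). The NMDA receptor subunits *Grin3a* (50.7 and 32.3 CPM against 4.59 and 1.503 CPM, difference 3.41, SE 0.69) and *Grin1* (33.8 and 42.1 CPM against 13.1 and 8.29 CPM, difference 1.56, SE 0.35) were higher. The AMPA receptor subunit *Gria2* was lower, at 293 and 166 CPM against 1075 and 747 CPM (difference -2.27, SE 0.30), and so were *Gria3*, the kainate receptor subunit *Grik3* and the glycine receptor subunit *Glra2*, with differences of -2.50, -2.20 and -1.99.

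Voltage-gated channels divided evenly, with 9 of 38 higher and 8 lower and a median of 0.11. Besides *Cacna2d2*, the calcium channel subunit *Cacna2d3* was higher, at 858 CPM in replicate 1 and 1142 CPM in replicate 3 against 58.03 and 73.02 CPM, a log2 difference of 3.66, SE 0.37 (edgeR adjusted p = 0.000564), and so was the T-type channel *Cacna1g*, at 27.8 and 39.97 CPM against 6.09 and 6.398 CPM (difference 2.17, SE 0.34). *Hcn4*, a channel of the hyperpolarization-activated current, had 21.7 and 16.8 CPM against 5.104 and 4.12 CPM (difference 1.74, SE 0.34). The 2 classes were apart for these genes. *Kcnq3*, a subunit of the M-type potassium channel, was lower, at 164 and 69.4 CPM against 1207 and 886 CPM (difference -3.46, SE 0.41), and the sodium channel *Scn1a* was lower too, with 3 and 8 UMIs, or 3.62 and 5.61 CPM, against 53.02 and 39.5 CPM.

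Markers of other cell types were mostly low. The 4 GABAergic markers outside the gate summed to 3 UMIs in replicate 1 and 2 in replicate 3, with *Dlx5* and *Lhx6* at 0. The 5 meningeal fibroblast markers summed to 3.62 and 75.7 CPM, of which 1 cell of replicate 3 with 105 UMIs held nearly all, and 48 of 50 and 87 of 91 members held none. Without that cell 2970 genes differed from projection neurons. Endothelial markers summed to 4.83 and 11.2 CPM, microglia markers to 2.41 and 1.40 CPM, and pericyte markers, all but 1 UMI of them *Rgs5*, to 45.9 and 25.9 CPM. The 5 globin genes summed to 82.1 and 360 CPM, against 619 and 496 CPM in projection neurons. None of these lists held a gene past the threshold against projection neurons. Among 6 hem and choroid plexus markers, the signals *Wnt8b* and *Rspo2* and the factor *Lmx1a* were higher, *Wnt8b* not so without the 2 members of over 50000 UMIs, while *Ttr*, the defining marker of choroid plexus, was at 0 and 45.6 CPM, below the 82.2 CPM of projection neurons in replicate 3. Of 6 progenitor and cell cycle markers only *Mki67* passed, with a difference of -0.93, SE 0.26, a call lost under 6 alternatives. The immediate early genes *Fos* (59.1 and 27.4 CPM against 4.02 and 4.65 CPM, difference 2.93, SE 0.31) and *Egr1* (4.83 and 25.9 CPM against 2.76 and 3.805 CPM, difference 2.07, SE 0.48) were higher. They were 2 of 12 immediate early and heat shock genes, beside the 20.4% of all genes that differed. Of 3 neuron markers, *Dcx* (doublecortin) was lower, at 292 and 187 CPM against 672 and 615 CPM (difference -1.70, SE 0.22). Members with at least 10 UMIs of *Neurod2* and *Neurod6*, the genes that gated projection neurons, numbered 3 and 2. Doublet scores were among the highest of their library in 4 and 9 members, and 3232 genes differed once the barcodes so marked were removed from all classes. The part of such cells in the differences was not tested beyond these counts.

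GABAergic neurons had the next highest *Reln* level of the 4 classes. Between Cajal-Retzius cells and GABAergic neurons 4600 genes differed (31.0%), of which 2344 were higher (15.8%) and 2256 lower (15.2%) in Cajal-Retzius cells, and 4599 (31.0%) had the same direction in both replicates. Without TMM factors the split was 2833 and 1784, or 61.4% higher in place of 51.0%. The GABAergic class was not alike in the replicates. It held 627 and 209 cells, its globin genes summed to 2316 and 10173 CPM, and its *Ebf1* levels are given above. The part of this in the differences was not tested.

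The genes most above GABAergic neurons were in large part those already described. *Nhlh2* had 550.4 CPM in replicate 1 and 494 CPM in replicate 3 in Cajal-Retzius cells and 2.297 and 2.34 CPM, or 9 and 3 UMIs, in GABAergic neurons (edgeR adjusted p = 0.000178). Its paralog *Nhlh1* had 43.5 and 85.6 CPM and 0 and 3 UMIs, and *Mia*, a small secreted protein, 132 and 177 CPM and 1 and 0 UMIs. *Ccbe1*, a secreted matrix protein, had 221 and 204 CPM against 1.02 and 3.900 CPM (difference 6.65, SE 0.54). The 2 classes did not overlap for these genes. *Rspo3* differed by 6.55, SE 0.70. *Rspo2* had 3 and 1 UMIs in GABAergic neurons, *Cdkn1a* 10 and 1, *Ebf3* 24 and 0 and *Gmnc* 1 and 0, against 36 and 453, 93 and 504, 391 and 477 and 13 and 220 UMIs in the much smaller number of Cajal-Retzius cells. *Gm27199* was also among the genes given by the rule, with the limit named above.

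Of the 5 genes named on the lower side, 4 had 0 UMIs in both sums of Cajal-Retzius cells. Set against the 3 UMIs that a count of 0 allows per sum, *Lhx6*, a factor of medial ganglionic eminence interneurons with 109 and 232 CPM in GABAergic neurons, was at least 30.1-fold lower in replicate 1 and at least 110-fold lower in replicate 3. *Dlx5*, a homeobox factor of GABAergic neurons, was at least 34.5-fold and 38.9-fold lower, *Nxph2*, a neurexophilin, at least 36.0-fold and 175-fold, and the noncoding RNA *Sox1ot* at least 88.0-fold and 107-fold. The contactin-associated gene *Cntnap5c* had 1 UMI in each sum of Cajal-Retzius cells and 567 and 937 CPM in GABAergic neurons.

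By lists, 14 of the 16 markers outside the gate were higher than in GABAergic neurons and 0 lower (median 4.27, against -0.04 for all genes). *Cxcr4*, which GABAergic neurons also use in migration, did not pass the test, at 67.6 and 60.3 CPM against 24.3 and 39.8 CPM. The p53 list had 11 of 16 higher and 0 lower (median 1.51). Here *Bax* was higher, at 243 and 316 CPM against 135 and 113 CPM (difference 1.04, SE 0.18), as was *Bbc3*, at 15 and 24 UMIs, or 18.1 and 16.8 CPM, against 8 and 3 UMIs, or 2.04 and 2.34 CPM. *Trp53* did not pass, at 53.1 and 68.03 CPM against 45.7 and 50.7 CPM. Both comparisons share the Cajal-Retzius sums, so the second is no independent evidence.

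Of 26 projection neuron transcription factors, 8 were higher and 8 lower (median -0.12). *Tbr1*, at 187 and 154 CPM against 5.36 and 8.58 CPM (difference 4.59, SE 0.26), and *Nfix*, at 779 and 764 CPM against 45.9 and 101 CPM (difference 3.32, SE 0.33), were on the higher side. *Cux2* had 28.97 and 19.6 CPM against 406 and 707 CPM (difference -4.68, SE 0.39) and *Mef2c* 65.2 and 48.4 CPM against 643 and 1020.2 CPM (difference -4.02, SE 0.38), and both were lower. Of the pallial patterning factors 9 of 16 were higher and 3 lower (median 2.95), with *Emx2* at 366 and 326 CPM against 3.83 and 13.3 CPM (difference 5.53, SE 0.48). Of the EBF, LIM and Zic genes 9 of 18 were higher and 2 lower (median 2.11).

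Signaling and excitability genes followed, with counts to be read beside the 31.0% of all genes that differed from GABAergic neurons. Secreted growth factors were higher in 14 of 25 and lower in 1 (median 2.33), with *Wnt7b* at 174 and 116 CPM against 3.06 and 5.46 CPM (difference 5.08, SE 0.32). Guidance receptors were higher in 6 of 28 and lower in 7 (median -0.11), with the CXCL12 scavenger *Ackr3* lower at 4.83 and 14.03 CPM against 149 and 274 CPM (difference -4.43, SE 0.53). Guidance ligands were higher in 5 of 21 and lower in 5 (median -0.50), and reelin pathway genes higher in 1 of 19 and lower in 6 (median -0.21), *Dab1* being the higher one by 0.82, SE 0.26, a call lost under 5 alternatives. Transmitter receptors were lower in 11 of 28 and higher in 0 (median -0.85), among them *Gria1* at 244 and 105 CPM against 1819 and 2862 CPM (difference -3.89, SE 0.42) and *Gria4* at 276 and 181 CPM against 1578 and 2649 CPM (difference -3.35, SE 0.33). *Slc17a6* was the 1 transporter of 10 that was higher, at 226 and 202 CPM against 2.55 and 5.46 CPM (difference 5.799, SE 0.43), and the vesicular GABA transporter *Slc32a1*, with 2 and 0 UMIs in Cajal-Retzius cells and 55.6 and 85.8 CPM in GABAergic neurons, was 1 of 3 that were lower. Channels were higher in 6 of 38 and lower in 9 (median -0.27), with *Cacna2d1* at 2001 and 1908 CPM against 70.97 and 29.6 CPM (difference 5.08, SE 0.39). Apoptosis regulators were higher in 1 of 12 and lower in 2, and 4 of 5 globin genes were lower, beside the globin levels of the GABAergic sums given above.

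Members differed among themselves by their *Reln* level, and the genes given for this were chosen after their values were seen. The 141 cells were divided into tertiles of 47 cells by *Reln* CPM, which put 11, 21 and 18 cells of replicate 1 and 36, 26 and 29 of replicate 3 into the low, middle and high tertile. The tertiles were built from a gate gene and are described without a test, and cells of 1 library are not replicates. Median depth was 12702 and 12820.5 UMIs in the low tertile and 17443 and 13351 in the high tertile. *Trp73* was found at like levels in all tertiles, with 246, 272 and 341 CPM in replicate 1 and 285, 299.9 and 296 CPM in replicate 3 from low to high. *Lhx5*, another gate gene, was not, since most of the 6 and 32 members without it were in the low tertile. In replicate 3 most members of that tertile lacked *Lhx5*.

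The low tertile of replicate 3 held cells with RNA of the multiciliated cell program, in which GMNC and MCIDAS are regulators and CCNO and FOXJ1 act downstream. *Gmnc* was found in 26 of 36 cells of the low tertile (339 CPM), in 5 of 26 of the middle and in 3 of 29 of the high tertile. *Mcidas* was found in 18 of 36, 0 of 26 and 0 of 29, and *Ccno* in 11, 1 and 0. In replicate 1 the low tertile had 3 of 11 cells with *Gmnc* and 1 with *Mcidas* and *Ccno* each. Over both replicates, 19 of the 141 members held *Gmnc* together with *Mcidas* or *Ccno*, and 18 of these were in the low tertile. *Mcidas* was found in 0.0846% and 0.176% of projection neurons and in 0.332% and 0.601% of radial glia-like progenitors. *Ndnf* was found in 2 of the 20 cells with *Mcidas* or *Ccno*, and in 7 of 47 cells of the low tertile, 30 of the middle and 31 of the high tertile.

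Markers of other states moved with the low tertile, and their part in these values was not tested. The 6 hem and choroid plexus markers summed to 105, 53.3 and 82.3 CPM from the low to the high tertile of replicate 1 and to 1033, 145 and 191 CPM in replicate 3. The 6 progenitor and cell cycle markers summed to 646, 163 and 195 CPM and to 1065, 310.1 and 386 CPM. The 3 neuron markers had their lowest sum there, at 2333, 4559 and 3417 CPM in replicate 1 and 1592, 4263 and 3036 CPM in replicate 3. Of these, *Stmn2* stood at 997, 2624 and 1982 CPM and at 574, 2328 and 1728 CPM, and *Tubb3* at 856, 1633 and 1247 CPM and at 799, 1736 and 1173 CPM. In the low tertile of replicate 1, 1 cell held 66 of the 105 UMIs of the progenitor and cell cycle markers, so that sum rested largely on 1 cell. The hem and choroid plexus markers had only 17 UMIs in that tertile. The 2 members of over 50000 UMIs were both in the low tertile of replicate 3 and held 352 of its 606 UMIs of the hem and choroid plexus markers. Without them that sum was 527 CPM, the sum of the progenitor and cell cycle markers 755 CPM and that of the neuron markers 1558 CPM. They held 0 UMIs of *Gmnc*, *Mcidas* and *Ccno*, and 1 of them was among the highest doublet scores.

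**Figure D5:**
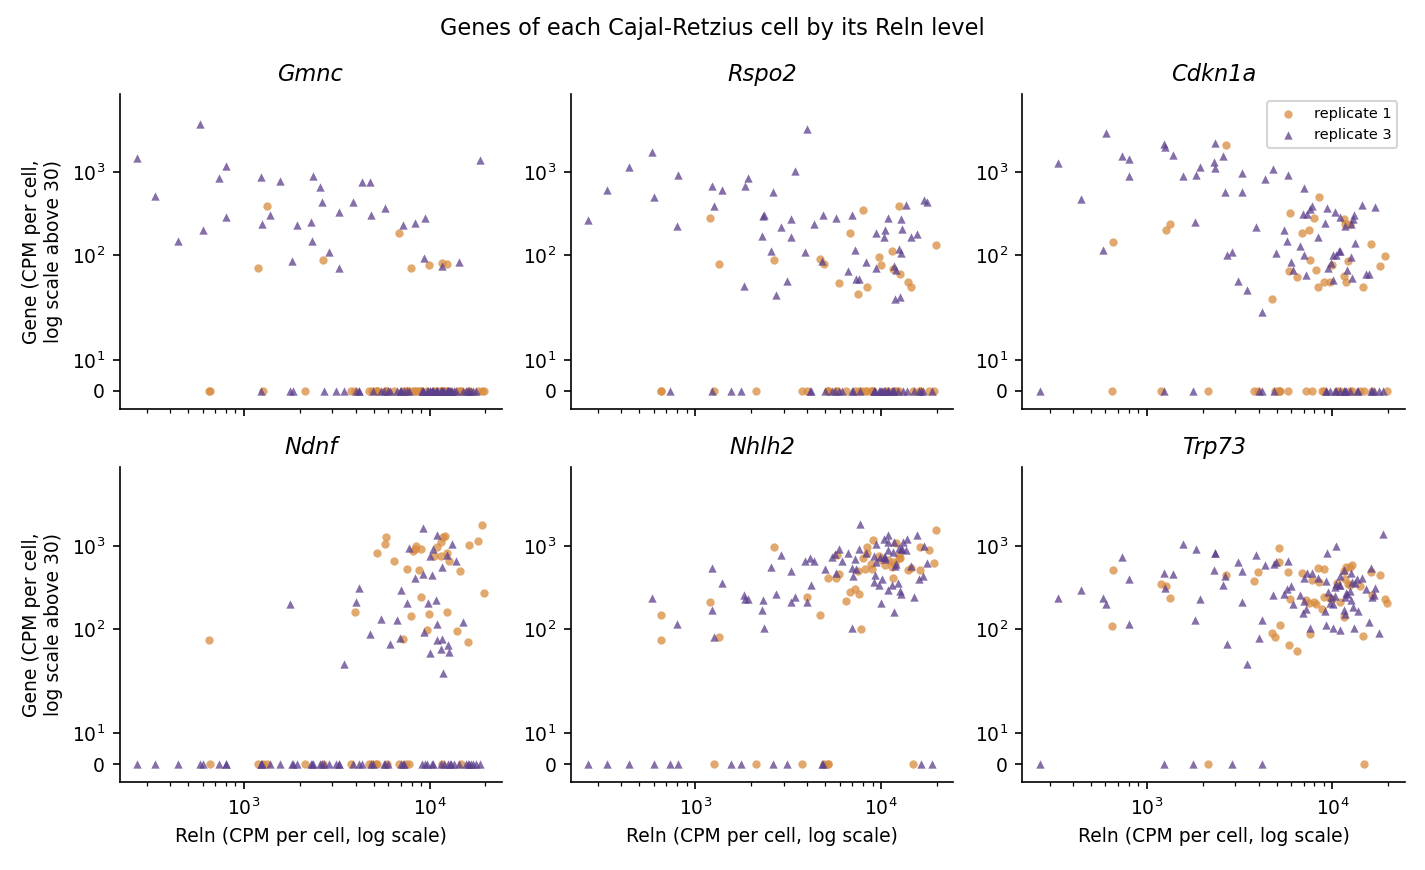
Each point is a Cajal-Retzius cell, with its *Reln* CPM (x axis, log scale) and its CPM of 1 of 6 genes (y axis, log scale above 30), circles for replicate 1 and triangles for replicate 3. *Gmnc* was found in 29 of the 47 cells lowest in *Reln* and 5 of the 47 highest, and *Ndnf* in 7 and 31.

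Other genes went along with *Reln* or against it. *Cdkn1a* stood at 203, 112 and 67.1 CPM from the low to the high tertile of replicate 1 and at 666, 193 and 83.0 CPM in replicate 3. *Rspo2* stood at 668, 48.3 and 94.2 CPM in replicate 3 but at 61.6, 38.5 and 39.6 CPM in replicate 1. In the low tertile of replicate 3, 1 member held 173 *Rspo2* UMIs, and without the 2 members of over 50000 UMIs that tertile stood at 340 CPM. Both genes had their highest level at low *Reln* in both replicates, and without these 2 members, both of replicate 3, as well. In replicate 1, however, 1 member held 24 of the 33 *Cdkn1a* UMIs of the low tertile, so that its level there rested largely on 1 cell. *Cdkn1a* was found in 5 of 11, 13 of 21 and 10 of 18 members of replicate 1 from low to high. The helix-loop-helix gene *Nhlh2* ran the other way, at 166, 574 and 716 CPM in replicate 1 and 227, 681 and 679.8 CPM in replicate 3, and so did the potassium channel *Kcnh7*, at 726, 1899 and 3551 CPM and 513, 1309 and 2282 CPM. *Plxnd1* had 0, 41.4 and 73.2 CPM and 11.9, 38.1 and 89.7 CPM. These 3 genes were thus lowest in the low tertile in both replicates, and *Nhlh2* was at a like level in the middle and high tertile of replicate 3. *Top2a*, a marker of dividing cells, reached at least 3 UMIs in 4 members, all in the low tertile. The netrin receptor *Unc5d*, lower in Cajal-Retzius cells than in projection neurons, stood at 794, 68.0 and 3.05 CPM in replicate 1 and at 299.9, 137 and 2.24 CPM in replicate 3. Single cells held most of it in replicate 3, where 1 cell had 129 of the 176 UMIs in the low tertile and 1 cell 48 of the 54 in the middle. The part of barcodes that hold 2 cells in this was not tested. When the members with under 20 *Reln* UMIs were left out, 3026 genes differed from projection neurons, 1375 higher and 1651 lower.

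The replicates of Cajal-Retzius cells differed in several of these genes, and with 1 sum each this was not tested. *Gmnc* stood at 15.7 CPM in replicate 1 and 154 CPM in replicate 3, *Cdkn1a* at 112 and 353 CPM, *Rspo2* at 43.5 and 318 CPM and *Rspo3* at 515 and 1185 CPM, all with more in replicate 3. Within the low *Reln* tertile they also had more in replicate 3, at 43.1 and 339 CPM for *Gmnc*, 203 and 666 for *Cdkn1a*, 61.6 and 668 for *Rspo2* and 726 and 2036 for *Rspo3*. Without the 2 members of over 50000 UMIs, *Rspo2* stood at 170 CPM in all members of replicate 3. *Ndnf* stood at 535 and 155 CPM, *Car10* at 559 and 189 CPM and *Ndst4* at 315 and 60.3 CPM, with more in replicate 1. The progenitor gene *Fabp7* had 37.4 and 173 CPM in Cajal-Retzius cells. Other classes also differed between the replicates. *Rspo2* had 24.1 and 50.01 CPM in radial glia-like progenitors, while *Ttr* had 6.14 and 609 CPM there and 0.6605 and 82.2 CPM in projection neurons.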

How the data were processed

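Single cell RNA sequencing had been performed on the dorsal telencephalon of 2 WT samples at E14.5 with 10x Genomics 3' v3.1 chemistry. The deposited values are UMI counts per gene and barcode, which the authors made with Cell Ranger 7.0.0 on mm10 over 32285 features, with no normalization. The filter kept barcodes of at least 1500 and at most 60000 UMIs whose mitochondrial share was below 10%, and classes were gated on UMIs as described in the report, radial glia-like progenitors with a sum of at least 5 UMIs. GABAergic neurons and radial glia-like progenitors also held at most 2 UMIs of *Neurod2* and *Neurod6*. Doublets were scored against simulated pairs, marking 0.8% per 1000 barcodes, and were kept in the main result. The members and gene lists were chosen with earlier results of these data known.

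UMIs were summed per class and replicate, and genes were filtered with filterByExpr (minimum count 10). Left out of the test were 13 genes, the gate genes and *Lhx1os*, which overlaps a gate gene. *Gm27199* and *Gm10475* were kept in the test. The 8 sums were tested with edgeR 4.0.16 in R 4.3.3 (TMM, quasi-likelihood, prior count 2 for log2 differences), with Benjamini-Hochberg adjustment over all tested genes and a threshold of 0.05. Named genes were the 10 called genes with the largest and the 5 with the lowest log2 difference, having the same direction in both replicates and at least 50 CPM on the higher side. No fold is given where a sum in the lower class held 3 or fewer UMIs, other than as a bound. The test was also run on simulated sums of Cajal-Retzius cells and projection neurons with known changes. It recovered 0 of 46 genes changed by a log2 difference of 0.5, 6 of 48 at 1, 25 of 48 at 2 and 41 of 49 at 3, with 0 false calls. The simulation changed 200 genes and gave 72 calls, against 3026 in the data, so its adjusted threshold was stricter. Both simulated classes were drawn from the same projection neuron profile. Its rates and its false calls are therefore no estimate for the data. A gene that did not pass the test may still differ by such amounts. Same-numbered sums come from the same library. Their replicate differences correlated over 14827 genes by 0.255 between Cajal-Retzius cells and projection neurons and by -0.0265 between Cajal-Retzius cells and GABAergic neurons. A fit with the replicate as a block, DESeq2 1.42.0, no TMM, no filter, other gates and filters, removal of doublets, and 3 exclusions chosen after seeing the data, the last of members with over 50000 UMIs, were the alternatives. Library totals after the filter were 62691953 and 88508523 UMIs. Promoter windows and gene positions were from RefSeq for GRCm38.p6, the assembly of mm10, and positions matched 353 of the genes given. Some genes of the lists enter the counts but are not reported here by name.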

Additional observations from a re-analysis of the deposited data

Results flagged for a closer look

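In replicate 3, 5 barcodes outside the filter met the gate of Cajal-Retzius cells, which is a signal in data that the comparisons did not use. Of these, 3 held over 60000 UMIs and 2 had a mitochondrial share of at least 10%, and their *Reln* ranged from 60 to 415 UMIs with a median of 86. Replicate 1 had 2 such barcodes, 1 with under 1500 UMIs and 1 with a high mitochondrial share.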

How the results depend on the processing

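Of the 648 gene values, the most calls changed without the filter on low counts, where 126 came to pass the threshold and 4 no longer did. Against projection neurons 4581 genes then differed, 2950 of them lower, over more genes tested. Without TMM factors 2255 were higher and 839 lower. The other totals lay between 2867 and 3232 against projection neurons and, with all alternatives, between 3515 and 5321 against GABAergic neurons. *Nrp2* against projection neurons, 0.05 and not past the threshold, was -0.59 with doublets removed, and the cause was not tested. Leaving out the 2 members of over 50000 UMIs gave 3024 and 4606 genes, and *Plxna1*, *Rspo1* and *Wnt8b* no longer passed against projection neurons. With the replicate as a block, 3156 genes differed from projection neurons and 4601 from GABAergic neurons, and of the 648 gene values 27 came to pass the threshold and 5 no longer did. The share of Cajal-Retzius cells was 0.577% after thinning to 3000 UMIs, which lowers every count in the gate, 0.917% to 1.22% with 1 replicate left out, and 0.873% to 1.18% under the other alternatives. Leaving out a replicate left 1 sum per class and no residual degrees of freedom, so fold changes only were recomputed. Of the 648, 118 and 174 moved beyond the spread without replicate 1 and 3. The spread was the SD of the 2 values with 1 replicate each, and the main value mostly lies between them. Most values thus stay within it by construction, and these counts do not measure how stable the results are. A planned split of members by *Trp73* was not run, since only 2 and 5 cells lacked it. With 141 cells, genes of few UMIs could not be compared at this depth.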
